A study of Mus musculus with 16 samples.

Results

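The 37 genes described here encode the enzymes that build cholesterol and fatty acids and the proteins that control them. They were listed by symbol as 5 regulators, 18 enzymes of the sterol pathway, and 14 genes of fatty acid synthesis, desaturation and glycerolipid assembly. All 37 had a row among the 23609 gene IDs of the table, and all 37 were among the 21034 genes tested, those whose values averaged 10 or more over the tumors. None of the 37 passed the test of a difference between gene trap and wildtype tumors. The sterol enzymes varied together from tumor to tumor, with a median correlation between pairs of 0.52, or 0.29 without gene trap replicates 4 and 5. These 2 single tumors held the highest and the lowest mean level, respectively, of both the sterol and the fatty acid genes. They also held those of 12 cell cycle genes, and whether the spread differed between the groups was not tested.

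Total RNA was sequenced from primary mammary tumors of untreated mice that carried MMTV-PyMT, in which the mammary-directed MMTV promoter drives the polyoma middle T oncogene. Wildtype x PyMT littermates were compared with gene trap x PyMT F1 mice, which are Resf1 +/- and carry 1 lentiviral enhancer/gene trap in the first exon of *Resf1* that makes an EGFP-cre fusion and truncates the *Resf1* message. The trap came from a C57BL/6-background strain and the oncogene from FVB, tumors were taken at the humane endpoint, and the age of each mouse is not given. Each group was represented by 5 tumors, the labels do not say whether each came from its own mouse, and every value below is a normalized read count of 1 tumor unless another scale is named.

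Cells sense sterols at the endoplasmic reticulum. When sterols are scarce, SCAP escorts the SREBP transcription factors to the Golgi, where they are cut and freed to enter the nucleus, whereas INSIG proteins hold the SCAP and SREBP complex back when sterols are plentiful. SREBP-2 acts mainly on genes of cholesterol synthesis and SREBP-1 mainly on genes of fatty acid synthesis, and the mammary epithelium uses the latter to make milk fat. Because the tumors were measured in bulk, fewer cells of a type and less RNA per cell cannot be told apart in any value below.

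The column totals ranged from 31995078 to 42153593, and the sequencing depth is unknown because the deposited values were already normalized. *Resf1*, the trapped gene, was measured at 4215, 4397, 3881, 4487 and 3517 in wildtype replicates 1 to 5 and at 4029, 3066, 3686, 3392 and 3409 in gene trap replicates 1 to 5. The groups overlapped, with a log2 fold change of -0.22 (SE 0.09, unadjusted p = 0.0313 in limma's test, adjusted p = 0.9997), and without gene trap replicate 2 the change was -0.17 (unadjusted p = 0.0684). That tumor stood apart from the other 9 on the first principal component, which carried 31.1% of the variance, with a score of 91.8 against -18.6 to -4.8. All 9 luminal epithelial markers, such as keratins and claudins, were detected, with a median level per kilobase at percentile 97.8 of the tested genes. At an adjusted p under 0.05, 0 of the 21034 genes passed, and at an unadjusted p under 0.05, 479 genes passed.

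As a level per kilobase of the longest coding transcript, averaged over the 10 tumors, the fatty acid genes stood highest, with a median of 757 against 364 for the sterol enzymes and 629 for the regulators. At the top were *Thrsp*, a lipogenic protein of fat and lactating mammary gland, at 9393 per kilobase, *Srebf1* at 7251, and *Scd1*, the main stearoyl-CoA desaturase, at 6367. These 3 levels lay at percentiles 99.1, 98.9 and 98.8 of the tested genes. The paralog *Scd2* followed at 4420 and *Acly*, which makes cytosolic acetyl-CoA from citrate, at 3159. Among the sterol enzymes the highest was *Pmvk* at 1418 per kilobase and the lowest *Hsd17b7* at 92.8. *Acacb*, the acetyl-CoA carboxylase of mitochondria, was the lowest of all 37 at 65.1.

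**Figure D1:**
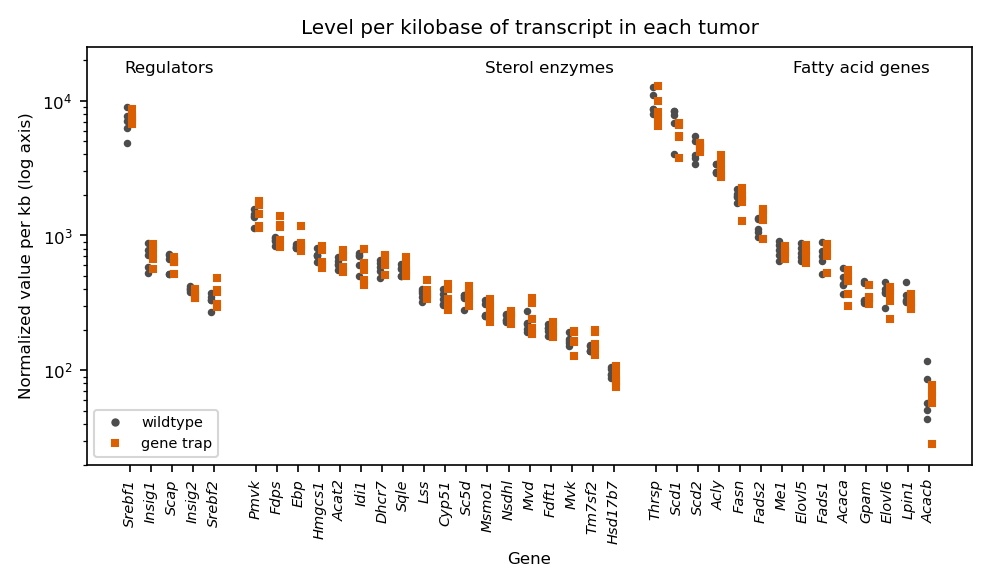
Normalized value per kilobase of the longest coding transcript (log axis) for each of the 37 genes, ordered by level within the regulators, the sterol enzymes and the fatty acid genes. Each circle is a wildtype tumor and each square a gene trap tumor, and both kinds of point overlap for every gene.

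*Srebf1*, which encodes SREBP-1, had values of 30128, 33360, 27005, 38356 and 20958 in wildtype replicates 1 to 5 and of 31116, 29002, 32448, 32383 and 36973 in gene trap replicates 1 to 5. The wildtype tumors held both the highest and the lowest value, so the gene trap range lay inside the wildtype range, and the log2 fold change was 0.14 (SE 0.14, unadjusted p = 0.364). *Srebf2*, which encodes SREBP-2, had values of 1699, 1785, 1693, 1887 and 1380 in wildtype tumors and of 1585, 2474, 1922, 2012 and 1508 in gene trap tumors. Gene trap replicate 2 was the highest tumor for *Srebf2*, and the log2 fold change of 0.15 (SE 0.13, unadjusted p = 0.266) became 0.05 without it. Per kilobase, *Srebf1* stood at 7251 and *Srebf2* at 353. An exon of *Srebf1* overlaps one of *Rai1* on the opposite strand, and it is not stated whether the counting used the strand.

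*Scap*, the escort protein, had values of 2201, 3009, 3062, 2849 and 2201 in wildtype tumors and of 2192, 2753, 2696, 2942 and 2696 in gene trap tumors, and the group means were 2664 ± 430 and 2656 ± 279 (SD, n = 5 each). *Insig1*, itself a target of the SREBPs that feeds back on them, had values of 2366, 2098, 1425, 1571 and 1945 in wildtype tumors and of 2186, 1960, 1802, 2340 and 1513 in gene trap tumors. Its log2 fold change was 0.07 (SE 0.15, unadjusted p = 0.662), with tumors of both groups at each end. *Insig2*, whose product shares the retention role, had values of 1028, 1104, 1086, 1138 and 1071 in wildtype tumors and of 920, 972, 928, 1052 and 1084 in gene trap tumors. Of the gene trap tumors, 3 lay below every wildtype tumor and the other 2 within the wildtype range. The log2 fold change of *Insig2* was -0.13 (SE 0.07, 95% interval -0.29 to 0.02), and its unadjusted p of 0.0896 was the smallest of the 37 genes.

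Of the 37 genes, 0 reached an unadjusted p under 0.05, where 2.28% of all tested genes did (1.32% higher and 0.956% lower in gene trap tumors), and 0 had groups that did not overlap, where 0.528% of all tested genes did. The adjusted p was 0.9997 for each of them in limma's test. By sign alone, 21 were higher and 16 lower in gene trap tumors, beside 10813 and 10221 of all tested genes. The median log2 fold change was 0.03, and that of all tested genes was 0.00. The 95% interval of the difference lay within a 1.5-fold change in either direction for 35 of the 37 genes, beside 12876 of the 21034 tested genes, and the exceptions were *Acacb* and *Scd1*. For these 35 genes a difference beyond 1.5-fold lies outside the interval, and smaller differences were not resolved with 5 tumors per group.

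**Figure D2:**
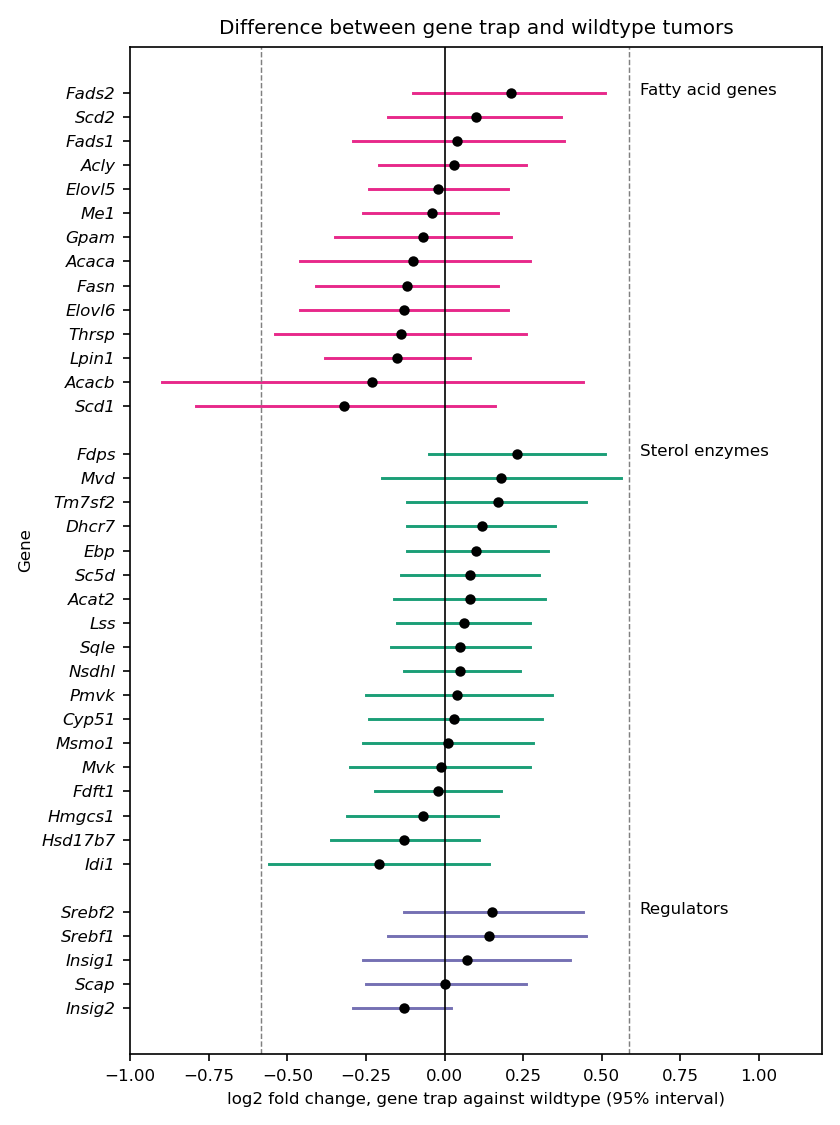
Log2 fold change of gene trap against wildtype tumors (points) with its 95% interval (bars) for the 14 fatty acid genes, 18 sterol enzymes and 5 regulators. Every interval includes 0, and only those of *Acacb* and *Scd1* reach past the dashed lines, which mark a 1.5-fold change.

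In the sterol arm, the 18 enzymes had log2 fold changes from -0.21 to 0.23 with a median of 0.05, and 13 were higher and 5 lower in gene trap tumors by sign. *Fdps*, which makes farnesyl diphosphate, the branch point between sterols and protein prenylation, had values of 1350, 1272, 1160, 1322 and 1258 in wildtype tumors and of 1605, 1641, 1288, 1915 and 1132 in gene trap tumors. The 3 gene trap replicates 1, 2 and 4 lay above every wildtype tumor and gene trap replicate 5 lay below every one. Its log2 fold change was 0.23 (SE 0.13, 95% interval -0.05 to 0.51, unadjusted p = 0.0938). With each tumor left out in turn, limma gave from 0.14 without gene trap replicate 4 (unadjusted p = 0.247) to 0.33 without gene trap replicate 5 (unadjusted p = 0.0111). *Idi1*, the isomerase that supplies the substrates of *Fdps*, had values of 2181, 1831, 2240, 1510 and 2116 in wildtype tumors and of 1889, 1669, 1408, 2392 and 1305 in gene trap tumors. Gene trap replicates 4 and 5 held the highest and the lowest value of all 10 tumors. The log2 fold change of *Idi1* was -0.21 (SE 0.16, unadjusted p = 0.223). With each tumor left out it ran from -0.33 without gene trap replicate 4 (unadjusted p = 0.0372) to -0.12 without gene trap replicate 5 (unadjusted p = 0.484).

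*Sqle*, squalene epoxidase and a control point late in the pathway, had values of 1708, 1581, 1377, 1554 and 1384 in wildtype tumors and of 1443, 1653, 1499, 1913 and 1383 in gene trap tumors. Only gene trap replicate 4 lay outside the wildtype range, and the log2 fold change was 0.05 (SE 0.10, unadjusted p = 0.635). *Pmvk*, phosphomevalonate kinase, had values of 1366, 1730, 1641, 1679 and 1867 in wildtype tumors and of 1717, 2168, 1409, 2003 and 1347 in gene trap tumors, so that the gene trap tumors again lay at both ends. *Tm7sf2*, a sterol reductase acting after lanosterol, had values of 210, 209, 226, 207 and 229 in wildtype tumors and of 195, 297, 218, 287 and 233 in gene trap tumors. Here gene trap replicates 2 and 4 were the high tumors, and the log2 fold change was 0.17 (SE 0.13, unadjusted p = 0.226). An exon of *Tm7sf2* overlaps one of *Vps51* on the same strand, and one of *Fdps* overlaps the gene model *Gm43738*, so reads of these genes could have been split or shared. *Hsd17b7*, a ketosteroid reductase of the same late steps, had values of 489, 471, 425, 407 and 436 in wildtype tumors and of 434, 386, 387, 497 and 347 in gene trap tumors, with a log2 fold change of -0.13 (SE 0.11, unadjusted p = 0.264). The other 12 sterol enzymes had log2 fold changes between -0.07 (*Hmgcs1*) and 0.18 (*Mvd*).

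The promoters of the 37 genes were also examined, and any part of the motifs in the levels, or in their variation between tumors, was not tested. RefSeq promoters of 300 bases, from 250 before to 50 after each annotated start (GRCm38.p6), were matched by symbol for 31 of the 37 genes, and each was searched on both strands for TCACNCCAC (a form of the sterol regulatory element bound by SREBPs), CCAAT (the box bound by NF-Y, a partner of SREBPs) and CACGTG (an E-box, which SREBPs can also bind). A gene with several starts was counted once if any of its promoters held the motif. CCAAT was found in 14 of 15 sterol enzymes (93.3%), in 7 of 11 fatty acid genes (63.6%) and in 4 of 5 regulators (80.0%), where 41.1% of the 27025 genes with a promoter held it. Those 27025 genes were not limited to genes expressed in the tumors. CACGTG was found in 6 of the 31 (19.4%), where 8.09% of genes held it. TCACNCCAC was found in 1 of the 31, *Hmgcs1*, the synthase at the entry to the mevalonate pathway, where 1.44% of genes held it. The windows below, each 30 bases on the strand of the gene, come from *Hmgcs1* and from genes whose values are given here, and capitals mark the sterol regulatory element in the first and CCAAT or its reverse complement ATTGG in the others.
Hmgcs1, chr13:119690204-119690233, plus strand: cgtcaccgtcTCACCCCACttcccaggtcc
Hmgcs1, chr13:119690294-119690323, plus strand: tccccgcctctcATTGGctgaaagcggatc
Idi1, chr13:8885580-8885609, plus strand: gtccaaggtgccATTGGctggcgaccgaca
Tm7sf2, chr19:6067880-6067909, minus strand: ctcccagcgctgATTGGctactgtgctggg
Hsd17b7, chr1:169969200-169969229, minus strand: ggccgagccttgATTGGtcgaggtgcgcgt
Pmvk, chr3:89454393-89454422, plus strand: aactcaggttggCCAATtcacagcatctag
Fasn, chr11:120824592-120824621, minus strand: cggcctcggtgtCCAATtggtttcgatgtg
Thrsp, chr7:97417585-97417614, minus strand: ggctgtgttgctCCAATggttgggctttgg
A match describes the letters in the window and is not a measured binding site.

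In the fatty acid arm, the 14 genes had log2 fold changes from -0.32 to 0.21 with a median of -0.08, and 4 were higher and 10 lower in gene trap tumors by sign. *Acaca*, the acetyl-CoA carboxylase that commits carbon to fatty acids, had values of 4076, 3506, 4717, 4123 and 5504 in wildtype tumors and of 5299, 3476, 4366, 4770 and 2863 in gene trap tumors. *Fasn*, fatty acid synthase, had values of 19508, 17504, 20553, 19679 and 22287 in wildtype tumors and of 19806, 19616, 17920, 22478 and 12870 in gene trap tumors. Gene trap replicate 5 was the lowest tumor for both genes, and 4 of the 5 gene trap values of *Fasn* lay within or just above the wildtype range. The log2 fold changes were -0.10 (SE 0.17, unadjusted p = 0.577) for *Acaca* and -0.12 (SE 0.13, unadjusted p = 0.38) for *Fasn*, and that of *Fasn* was 0.00 without gene trap replicate 5.

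*Scd1* had values of 33029, 19330, 40802, 40471 and 38010 in wildtype tumors and of 33079, 26199, 26530, 32065 and 18122 in gene trap tumors. Of the wildtype tumors, 3 lay above every gene trap tumor, whereas wildtype replicate 2 lay near the lowest gene trap tumor. The log2 fold change of *Scd1* was -0.32 (SE 0.22, 95% interval -0.79 to 0.16, unadjusted p = 0.171). With each tumor left out in turn, limma gave from -0.51 without wildtype replicate 2 (unadjusted p = 0.0103) to -0.18 without gene trap replicate 5 (unadjusted p = 0.407). *Scd2*, whose sequence is close to that of *Scd1* so that reads may have been split between them, ranged from 18429 to 29856 in wildtype tumors and from 22741 to 26375 in gene trap tumors. *Fads2*, a desaturase of polyunsaturated fatty acid synthesis, had values of 3492, 4206, 3324, 4220 and 3051 in wildtype tumors and of 4073, 4919, 4487, 4788 and 2981 in gene trap tumors. Gene trap replicates 2, 3 and 4 lay above every wildtype tumor and gene trap replicate 5 below every one. The log2 fold change of *Fads2* was 0.21 (SE 0.14, unadjusted p = 0.169). With each tumor left out it ran from 0.14 without wildtype replicate 5 (unadjusted p = 0.345) to 0.33 without gene trap replicate 5 (unadjusted p = 0.0126).

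*Lpin1*, a phosphatidate phosphatase of triglyceride synthesis, had values of 2024, 1809, 1853, 2502 and 1778 in wildtype tumors and of 1821, 1584, 1795, 2066 and 1650 in gene trap tumors, with a log2 fold change of -0.15 (SE 0.11, unadjusted p = 0.169). *Thrsp* had values of 10166, 11040, 14144, 11048 and 16019 in wildtype tumors and of 10608, 16482, 8235, 12742 and 9465 in gene trap tumors. Gene trap replicate 2 was the highest tumor for *Thrsp* and gene trap replicate 3 the lowest, and the log2 fold change was -0.14 (SE 0.18, unadjusted p = 0.463). With each tumor left out it ran from -0.28 without gene trap replicate 2 (unadjusted p = 0.0972) to -0.03 without gene trap replicate 3 (unadjusted p = 0.874). *Acacb* spread most of the 37 genes, from 382 to 1024 in wildtype tumors and from 248 to 688 in gene trap tumors, a ratio of 4.13 between the highest and lowest tumor, with a log2 fold change of -0.23 (SE 0.31, unadjusted p = 0.464). The remaining 7 fatty acid genes, among them *Scd2*, the elongases *Elovl5* and *Elovl6* and the malic enzyme *Me1*, had log2 fold changes between -0.13 (*Elovl6*) and 0.10 (*Scd2*).

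Differences among single tumors were shared across genes. Gene trap replicates 4 and 5 were picked out after seeing these values, so the shares below describe the tumors and are not a test. Gene trap replicate 4 was the highest of the 10 tumors for 12 of the 18 sterol enzymes (66.7%) and for 2 of the 14 fatty acid genes (14.3%), where it was the highest for 8.74% of all tested genes. Gene trap replicate 5 was the lowest tumor for 10 of the 18 sterol enzymes (55.6%) and for 8 of the 14 fatty acid genes (57.1%), where it was the lowest for 7.59% of all tested genes. For the 5 regulators, neither tumor held the top or bottom value, respectively, of any gene, and their mean log2 difference from the mean of the 10 tumors was 0.15 in gene trap replicate 4, the highest of all tumors, and -0.04 in gene trap replicate 5. Gene trap replicate 2, the tumor apart on the first principal component, was the highest for 6 sterol enzymes (33.3%), where it was the highest for 22.4% of all tested genes.

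**Figure D3:**
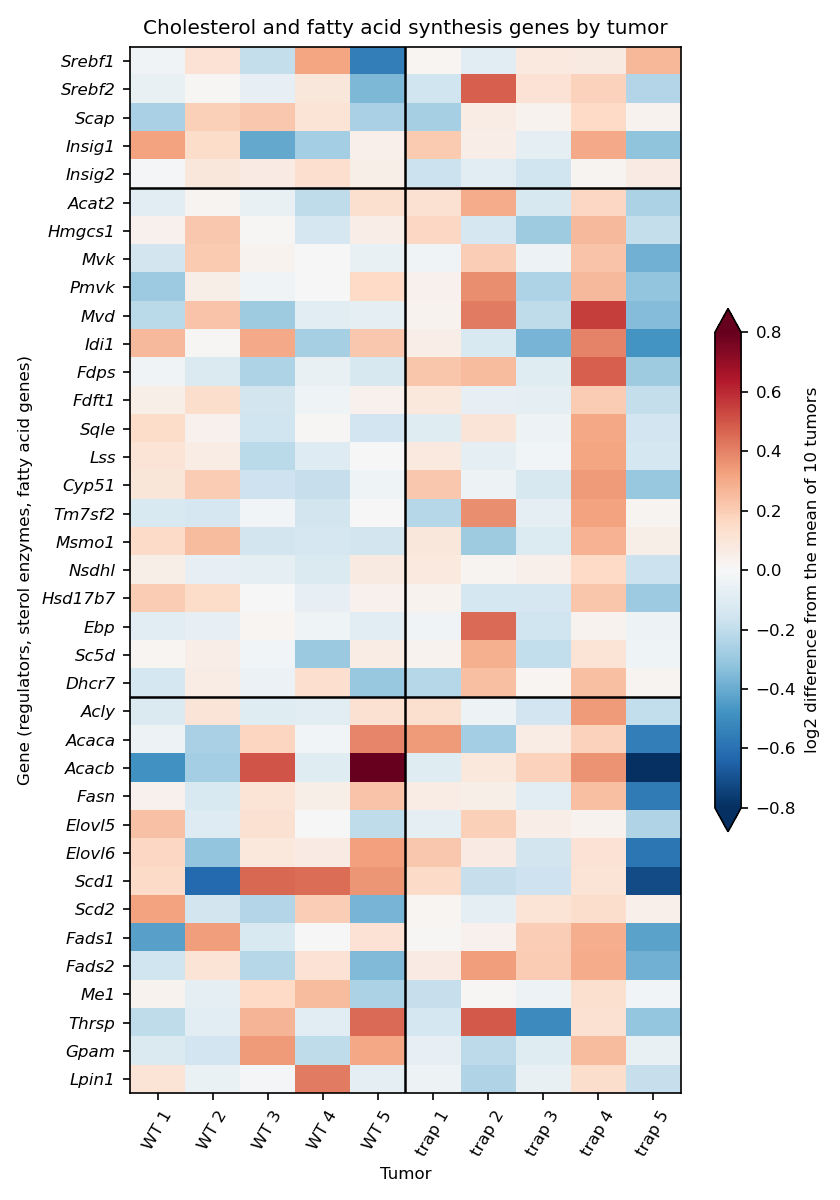
Log2 difference of each gene from its mean over the 10 tumors, for wildtype (WT) replicates 1 to 5 and gene trap replicates 1 to 5, with the regulators, the sterol enzymes and the fatty acid genes in 3 blocks. Among the sterol enzymes the column of gene trap replicate 4 is red throughout and that of gene trap replicate 5 mostly blue, and the colour scale ends at ±0.8, which some values of *Acacb* pass.

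The mean log2 difference of the 18 sterol enzymes from their mean over all tumors was 0.00, 0.07, -0.07, -0.10 and -0.01 in wildtype replicates 1 to 5 and 0.03, 0.12, -0.12, 0.27 and -0.19 in gene trap replicates 1 to 5. The wildtype tumors stayed within 0.10 of the mean and the gene trap tumors spread on both sides, with group means of -0.02 ± 0.07 and 0.02 ± 0.19 (SD, n = 5 each). For the 14 fatty acid genes the same measure was -0.04, -0.12, 0.11, 0.07 and 0.14 in wildtype tumors and 0.03, 0.02, -0.03, 0.20 and -0.38 in gene trap tumors, with group means of 0.03 ± 0.11 and -0.03 ± 0.21 (SD, n = 5 each). Whether the spread differed between the groups was not tested. The level of the sterol arm minus that of the fatty acid arm was 0.04, 0.19, -0.18, -0.17 and -0.15 in wildtype tumors and 0.01, 0.10, -0.09, 0.07 and 0.19 in gene trap tumors. This difference between the arms overlapped between the groups, at -0.06 ± 0.16 and 0.06 ± 0.10 (SD, n = 5 each).

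Cell cycle genes shared the extremes of both tumors, and adipocyte markers were lowest in gene trap replicate 5. All 12 cell cycle genes, such as those of mitotic kinases and replication helicases, were tested, and 9 of them were highest in gene trap replicate 4 and 5 lowest in gene trap replicate 5. Their summed values ranged from 32959 to 49829 in wildtype and from 33528 to 50351 in gene trap tumors, and their mean log2 difference was 0.42 in gene trap replicate 4 and -0.23 in gene trap replicate 5. Of 14 adipocyte markers, 9 were tested and the other 5 (*Plin1*, *Cidec*, *Lep*, *Retn* and *Pck1*) had no row, and all 9 were lowest in gene trap replicate 5. Their summed values ranged from 4048 to 15569 in wildtype and from 2823 to 8505 in gene trap tumors, with a mean log2 difference of -1.26 in gene trap replicate 5, 0.01 in gene trap replicate 4, and 1.09 and 0.91 in wildtype replicates 3 and 5. By sign, 0 of these 9 markers were higher and 9 lower in the gene trap group (median log2 fold change -0.40). The 9 milk-producing alveolar markers, a sum carried by *Csn3* (127658 to 180601 over the tumors), totalled between 151917 and 215835 in wildtype and between 156197 and 211402 in gene trap tumors. Their mean log2 difference, which weights each marker equally, ranged from -0.73 to 1.60 in wildtype tumors and from -0.55 to 0.45 in gene trap tumors, with 0.45 in gene trap replicate 4 and -0.48 in gene trap replicate 5. By sign, 1 was higher and 8 lower in the gene trap group (median -0.31). The 8 macrophage markers summed to between 14347 and 23903 in wildtype and between 15562 and 21830 in gene trap tumors, and their mean log2 difference was -0.27 in gene trap replicate 4 and -0.10 in gene trap replicate 5. Of the macrophage markers 2 were higher and 6 lower by sign (median -0.08), and of the cell cycle genes 2 were higher and 10 lower (median -0.03). The 9 luminal epithelial markers had a mean log2 difference of 0.03 in gene trap replicate 4 and 0.13 in gene trap replicate 5. By sign, 5 of them were higher and 4 lower in the gene trap group (median 0.00). None of these lists had a gene at an unadjusted p under 0.05 between the groups in limma's test, where 2.28% of all tested genes did. The part of the lists in the levels of the sterol and fatty acid genes was not tested.

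**Figure D4:**
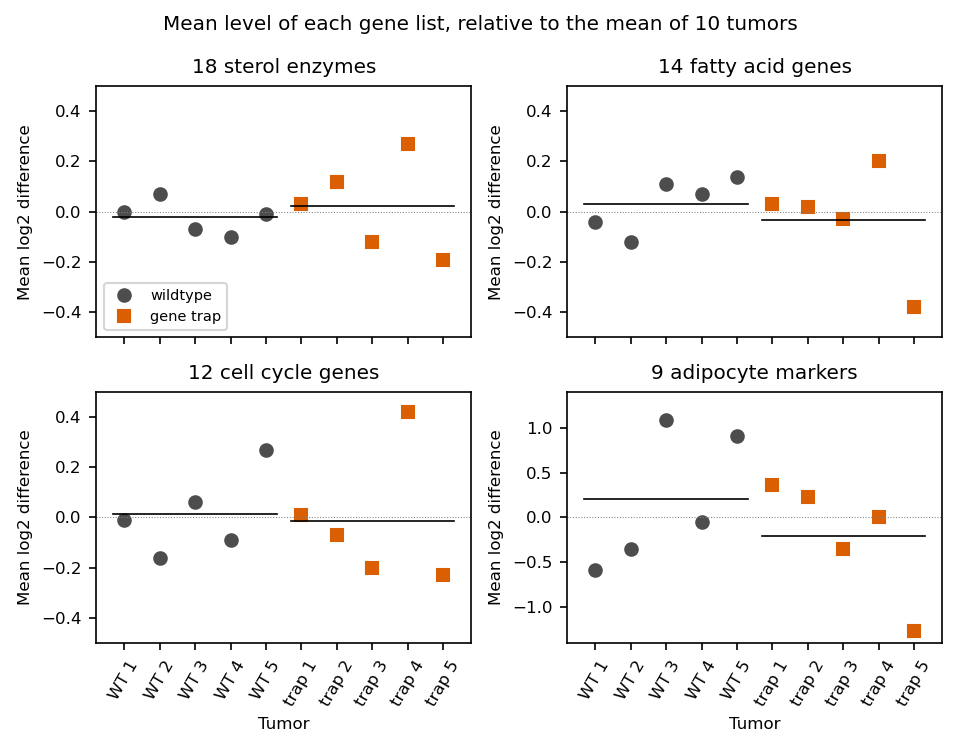
Mean log2 difference from the mean of the 10 tumors for 18 sterol enzymes, 14 fatty acid genes, 12 cell cycle genes and 9 adipocyte markers, with 1 point per tumor and a line at each group's mean. Gene trap replicate 4 is the highest tumor in the first 3 panels, gene trap replicate 5 is the lowest in all 4, and the panel of adipocyte markers has a wider axis.

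The correlation of the log2 values between pairs of genes, taken over the 10 tumors after subtraction of each group's mean, describes how far the genes moved together. Across the 153 pairs of sterol enzymes the median r was 0.52 and 90.8% of pairs were positive, whereas across all pairs of tested genes the median was 0.00. Across the 91 pairs of fatty acid genes the median was 0.28, and across the 252 pairs of a sterol with a fatty acid gene it was 0.26. The points share libraries and scaling, and the medians were lower without 2 of the tumors. Without gene trap replicates 4 and 5, a choice made after seeing the values, the median r was 0.29 among sterol enzymes, 0.04 among fatty acid genes and -0.08 between the arms. The spread within groups was a little smaller for the sterol enzymes, with a median residual SD of 0.19 on the log2 scale, than for the fatty acid genes and the regulators at 0.24 each and all tested genes at 0.25. It was not particular to them, since the further lists of other sterol and other fatty acid genes, described below, had medians of 0.18 and 0.19.

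The ratio of related genes within a tumor does not depend on the scaling between tumors. For 6 such pairs, the log2 ratio was compared between groups by an exact two-sided permutation test over 252 arrangements, in which the smallest possible p is 0.00794, with Benjamini-Hochberg adjustment over the 6. *Scd1*/*Scd2* was 1.11, 0.898, 2.01, 1.48 and 2.06 in wildtype replicates 1 to 5 and 1.37, 1.15, 1.03, 1.22 and 0.738 in gene trap replicates 1 to 5. The wildtype tumors held the 3 highest ratios and also the second lowest, and the log2 difference of -0.41 gave an exact p of 0.183 (adjusted p = 0.603). *Fads1*/*Fads2*, a pair that acts in sequence on polyunsaturated fatty acids, ranged from 0.517 to 0.868 in wildtype and from 0.51 to 0.624 in gene trap tumors (log2 difference -0.16, exact p = 0.286, adjusted p = 0.603). *Insig1*/*Insig2* ranged from 1.31 to 2.3 in wildtype and from 1.39 to 2.38 in gene trap tumors (log2 difference 0.20, exact p = 0.302, adjusted p = 0.603). *Srebf1*/*Srebf2* ranged from 15.2 to 20.3 in wildtype tumors and more widely, from 11.7 to 24.5, in gene trap tumors (log2 difference -0.02, exact p = 0.929). The ratios *Acaca*/*Acacb*, from 5.37 to 11.5 over all tumors, and *Elovl5*/*Elovl6*, from 0.669 to 1.22, also overlapped between the groups, with exact p = 0.619 and 0.54.

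**Figure D5:**
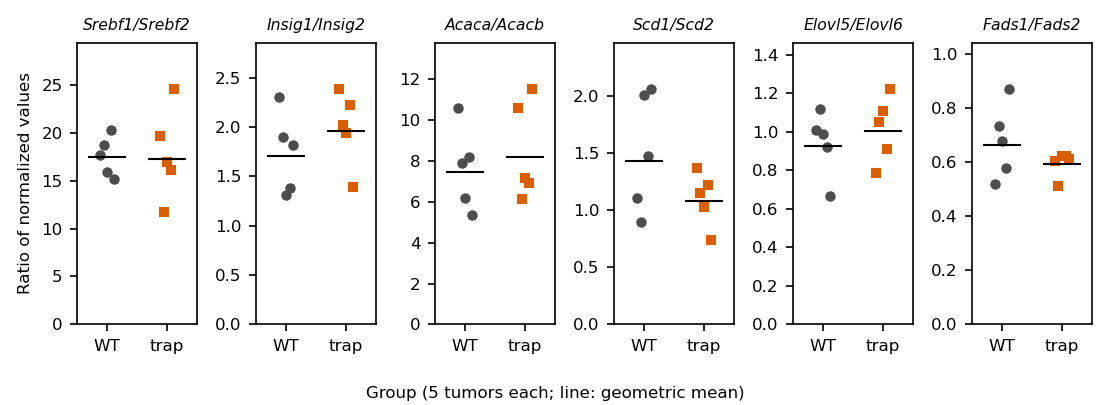
Ratio of the normalized values of 6 pairs of related genes in each of 5 wildtype (WT) and 5 gene trap tumors, with a line at the geometric mean of each group and every axis starting at 0. The points of the groups overlap in all 6 panels, and the widest gap between the means is that of *Scd1*/*Scd2*.

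The rest of both pathways was examined in further lists. Of 26 other genes of sterol synthesis, uptake, transport and sensing, all 26 were tested and 0 reached an unadjusted p under 0.05 in limma's test (smallest 0.105). Of all tested genes 2.28% did, a share at which lists of this size can hold 0. By sign, 10 of the 26 were higher and 16 lower, with a median log2 fold change of -0.03. Of 37 other genes of fatty acid synthesis, elongation, desaturation, activation, esterification and storage, including suppliers of NADPH and acetyl-CoA, 36 were tested and *Elovl3* had no row. Among these 36, 0 reached an unadjusted p under 0.05 (smallest 0.0745), beside the same 2.28%, and 13 were higher and 23 lower by sign, with a median of -0.04. The mean level of the other sterol genes stayed between -0.06 and 0.05 in all 10 tumors, a narrower range than the -0.19 to 0.27 of the 18 sterol enzymes.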

How the data were processed

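RNA-seq values of mouse mammary tumors were analysed, 5 wildtype and 5 gene trap. The labels describe 8 tumors per group, which the plan had assumed. Of 16 columns, 10 (Con for wildtype, Hypo for the gene trap hypomorph) matched a label by name, and 6 named otherwise were not used. The authors deposited a normalized signal per gene, that is, estimated counts divided by a size factor per tumor (median ratio 1.005 to 1.006 in the columns, 0 zeros). The values are not whole multiples of a step, so reads and depth could not be recovered. The submitters' processing notes name Partek, STAR 2.7.8a, DESeq2 and mm39, and the counter and annotation are not given in the sources used here.

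Symbols were found for 22899 of 23609 gene IDs (97.0%). Lengths came from GENCODE M21 and promoters from RefSeq on GRCm38.p6. The table uses a later build, so it carries no coordinates here. Values were taken as log2(value + 1), which understates changes of low genes, and genes with a mean of at least 10 were fitted with limma 3.58.1 (R 4.3.3), with a mean-variance trend and Benjamini-Hochberg adjustment. The p-values of limma set the difference between the groups against the spread between these tumors, with the variance of each gene moderated by that of the others. The fit was tested on simulated data with the means and residual spread of the real genes, in which 200 genes were changed. At an adjusted p under 0.05 it recovered 0 of them at 1.2-fold, 76 at 1.5-fold, 135 at 2-fold and 181 at 4-fold. The false calls were 0, 7, 8 and 14. The simulated errors were normal and independent between genes. These counts therefore do not cover data in which a tumor differs across many genes, as gene trap replicate 2 did.

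The 37 genes and the lists were chosen with earlier results of these data known. Values in every tumor are given for the 5 regulators, for *Sqle*, *Fasn*, *Acaca* and *Scd1*, and in each arm for the 4 genes of smallest p and the 2 of highest level per kilobase, 17 genes in all. Other members are given by range or count, and *Scd2*, *Acacb*, *Acly*, *Csn3* and the ends of ranges were named after their values were seen. Replicate numbers were not used to pair the tumors in the main fit, since the labels do not say whether tumors of the same number were matched. The correlations of same-numbered deviations from the group means ran from -0.1556 to 0.1488. Exons of 12 of the 37 genes overlap another gene, 3 of them a protein-coding gene on the opposite strand. The alternatives were other pseudocounts, filters and scalings, no variance trend, weights per tumor, the replicate block and tumors left out. Figures were drawn with matplotlib 3.10.9 (Python 3.11.15).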

Additional observations from a re-analysis of the deposited data

Results flagged for a closer look

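Among 112 groups of 5 values examined for a single tumor far from the other 4, 5 had one, where chance at 1 in 20 gives 5.6. *Ebp*, an isomerase of the late sterol steps, was 2044 in gene trap replicate 2, where the rest of its group lay between 1333 and 1522, and its log2 fold change of 0.10 was 0.00 without that tumor. *Sc5d*, a late sterol desaturase, was 1348 in wildtype replicate 4, where the rest of its group lay between 1634 and 1724. The *Fads1*/*Fads2* ratio was 0.51 in gene trap replicate 2 and the remaining 4 lay between 0.603 and 0.624. The mean log2 difference of the other fatty acid pathway genes was 0.10 in gene trap replicate 4 and the remaining 4 lay between -0.08 and -0.03. That of the 7 fibroblast markers was 0.75 in gene trap replicate 1 and the remaining 4 lay between -0.20 and -0.03. The fibroblast markers summed to between 39625 and 85139 in wildtype and between 52590 and 121332 in gene trap tumors, and their part in the results was not tested.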

How the results depend on the processing

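In 20 alternative fits, 0 genes passed an adjusted p of 0.05 each time, as before. The count of the 37 genes at an unadjusted p under 0.05 was 0, and became 1 with the replicate block (*Fads2*, unadjusted p = 0.0332 in limma's test). With each tumor left out it ranged from 0 to 3, with 1 without wildtype replicate 2 (*Scd1*), 1 without gene trap replicate 4 (*Idi1*) and 3 without gene trap replicate 5 (*Insig2*, *Fdps* and *Fads2*), and the other alternatives gave 0. Of all tested genes, 426 of 21034 reached it with the block and 600 of 21040 without wildtype replicate 2. Without gene trap replicate 4, 692 of 21072 did, and without gene trap replicate 5, 563 of 21039. With the replicate numbers as a block, no other call changed.

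The median log2 fold change of the sterol enzymes ranged from -0.01 to 0.10 with each tumor left out and from 0.02 to 0.05 otherwise, and that of the fatty acid genes from -0.15 to 0.01 and from -0.11 to -0.08. Small log2 fold changes crossed 0. That of *Scap* was -0.02 with columns scaled to the same total, and -0.05 with weights per tumor, which gave -0.04 for *Pmvk*. Without gene trap replicate 2 and wildtype replicate 5, the tumors at the ends of the first principal component, it was -0.08 for *Scap*, -0.02 for *Srebf2*, 0.00 for *Sqle* and 0.05 for *Acaca*, and the log2 difference was 0.07 for *Srebf1*/*Srebf2* and -0.02 for *Elovl5*/*Elovl6*. With each tumor left out the ranges were -0.06 to 0.07 for *Scap*, -0.04 to 0.13 for *Pmvk*, -0.03 to 0.16 for *Insig1*, -0.02 to 0.09 for *Sqle*, -0.20 to 0.00 for *Fasn*, -0.19 to 0.03 for *Acaca*, -0.14 to 0.12 for *Srebf1*/*Srebf2* and -0.01 to 0.20 for *Elovl5*/*Elovl6*. The cause was not tested. The median r between the arms was -0.08 without gene trap replicates 4 and 5, added after seeing the data. It was 0.08 without gene trap replicate 5 alone, which also gave 0.09 among fatty acid genes, and the median r among sterol enzymes was 0.41 without gene trap replicate 4. No alternative moved the median of all genes by more than 0.02. Depth is unknown, so counting error could not be separated from differences between tumors.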
